A study of Mus musculus with 4 samples.

Results

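The genes described here are 29 enzymes and regulators of sterol and fatty acid synthesis, listed by name whose transcripts were measured in mouse mammary tumour cells, in 4 libraries. All 29 were found among the 50679 genes of the deposited table, and all 29 passed the filter for testing. They fall into 7 genes of the mevalonate pathway, 11 that carry squalene to cholesterol, 5 of SREBP control and sterol transport, and 6 of fatty acid synthesis. The libraries came from PyMT tumour cells (polyoma middle T, an oncogene that drives mammary tumours) with wild-type PCNA (WT, n = 2) or with PCNA 211F (n = 2). Both genotypes carry PyMT, and PCNA is the ring that holds DNA polymerases during replication. Tumours were from mice aged 10 weeks, epithelial cells were captured with an EpCAM antibody, and the captured cells were cultured with serum after plating at 100000. The promoter that drives PyMT, the zygosity of the 211F allele and the number of mice behind each library are not stated in the labels, so p-values measure only the spread between these libraries.

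Cells build cholesterol from acetyl-CoA through mevalonate, the isoprenoid farnesyl diphosphate, squalene and lanosterol. Fatty acids come from the same acetyl-CoA, which ATP citrate lyase cuts from citrate in the cytosol. The SREBP transcription factors turn on both pathways: SCAP escorts them from the endoplasmic reticulum when sterol is low, INSIG proteins hold them back when sterol is high, SREBP2 acts mainly on sterol genes and SREBP1 mainly on fatty acid genes. The mammary gland makes much lipid of its own, since milk fat is assembled in its secretory cells.

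The library WT 2 went against its label of epithelial cells, and every comparison below rests in part on it. The 12 epithelial markers examined summed to 7.30 FPKM (fragments counted on a gene, divided by its length in kilobases and by the library total) in WT 2, and to between 3231 and 3620 FPKM in the other 3 libraries. That sum hides a difference of 211F 1. In WT 1, 211F 1 and 211F 2 the keratin gene Krt14 was at 1058, 1297 and 1722 FPKM. The keratin gene Krt5 was at 245, 1029 and 3.84 FPKM in the same libraries. Epcam (77.3 FPKM), Esrp1 (17.4) and Grhl2 (9.17) were lower in 211F 1 than in WT 1 (444, 110 and 48.4). They were at 450, 102 and 42.0 FPKM in 211F 2. Of the 12 markers 2, Krt5 (1029 FPKM) and Cldn4 (74.9), were highest in 211F 1. The 14 mesenchymal and fibroblast markers summed to 278, 3531, 4281 and 45.2 FPKM in WT 1, WT 2, 211F 1 and 211F 2. Of these, Col1a1, Col1a2 and Col3a1, fibrillar collagen genes of fibroblasts, reached 437, 416 and 118 FPKM in WT 2 and at most 3.63 elsewhere. Pdgfra reached 76.6 FPKM in WT 2 and at most 9.15 elsewhere. Dcn and Lum, also of fibroblasts, were at most at 3.72 and 0.0222. Other markers of this list were shared with 211F 1: of the 12 tested, 8 were highest in WT 2 and 4 in 211F 1. Vim, Fn1, Acta2 and Thy1 peaked in 211F 1, at 1856, 1851, 442 and 10.7 FPKM. Their WT 2 values were 1634, 622, 95.8 and 1.67. Zeb1 (52.3 and 41.6) and Zeb2 (26.1 and 25.3) were similar in WT 2 and 211F 1. The adipocyte markers Adipoq, Cidec and Cfd were at 0 in all 4 libraries, and the 10 adipocyte genes summed to between 3.67 and 6.09 FPKM, led by Lipe. Leukocyte markers summed to at most 4.44 FPKM over 8 genes, with Ptprc at most at 0.0180, and endothelial markers to at most 2.09 over 6 genes. Among 10 secretory genes, Lalba and Glycam1 were at 0 throughout, while the casein gene Csn1s1 stood at 458 FPKM in WT 1 and at most at 0.195 elsewhere.

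The 29 genes were lowest in WT 2 more often than in any other library. Summed over the 29 genes, the level was 1317 FPKM (WT 1), 693 (WT 2), 1008 (211F 1) and 1027 (211F 2). WT 2 held the lowest of the 4 values for 16 of 29 genes, against 29.2% of all 12767 genes tested, and the highest for 2 of 29, against 30.2% of all genes. WT 1 held the highest value for 13 of 29 genes, against 21.2% of all genes. From WT 1 to WT 2, 2 libraries of the same genotype, 23 of 29 genes were lower, with a median difference of -0.65 on the log2(FPKM + 1) scale (0.05 over all genes tested). The part of the epithelial and mesenchymal markers in this pattern was not tested. In bulk RNA, fewer cells of a type and less RNA per cell cannot be told apart.

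**Figure D1:**
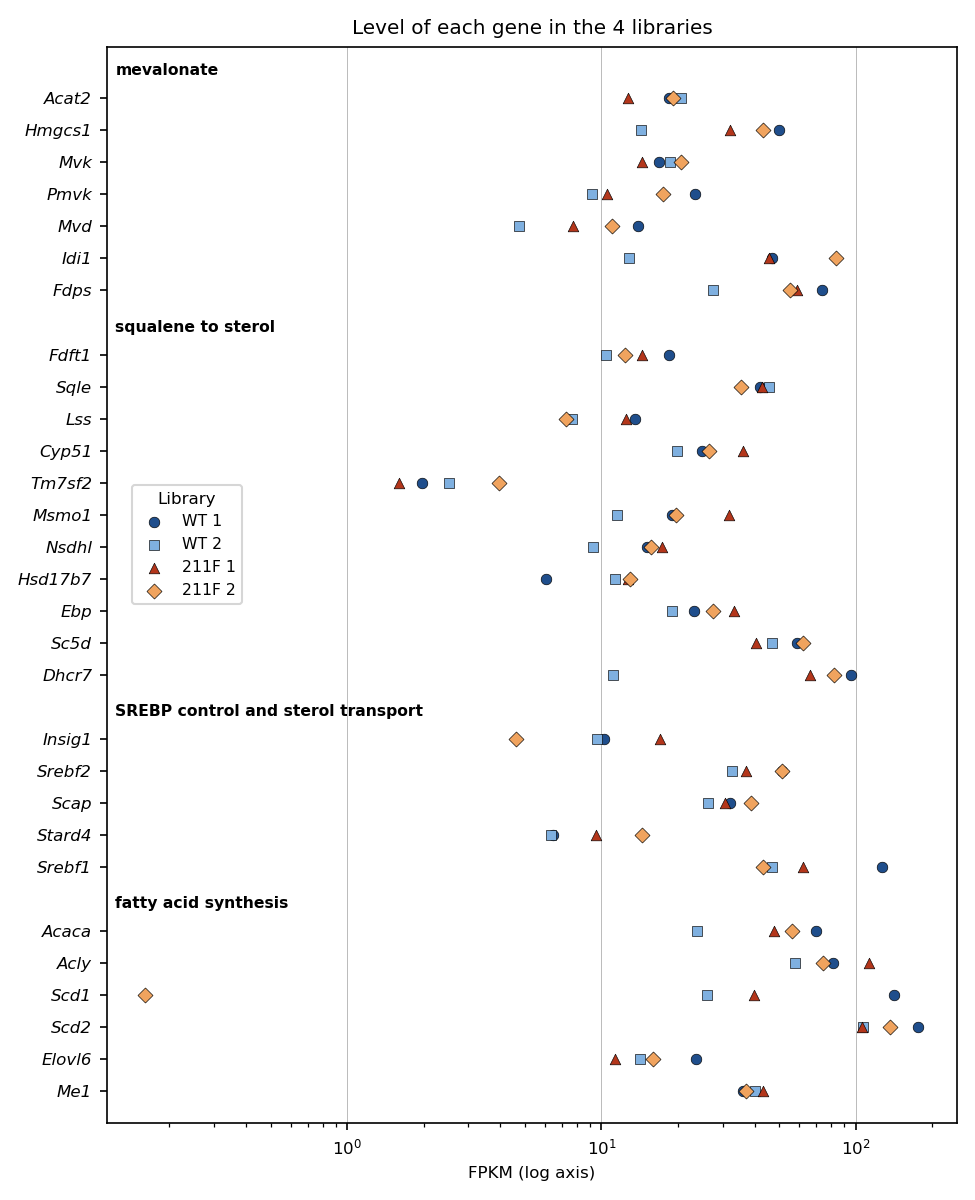
Level of each gene in FPKM (log axis) in WT 1 (circles), WT 2 (squares), 211F 1 (triangles) and 211F 2 (diamonds), grouped by role. WT 2 lies to the left for 16 of the 29 genes, and the most distant single point is Scd1 in 211F 2 at 0.161 FPKM.

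No gene of the 29 passed the test between genotypes. The limma test with Benjamini-Hochberg adjustment over 12767 genes called 0 of 29 (0% of all genes), the smallest adjusted p was 0.9999, and 0 of 29 had an unadjusted p under 0.05 (1.89% of all genes, 241 in number). Differences are given as 211F minus WT on the log2(FPKM + 1) scale, where the added 1 makes differences of low genes smaller. Of the 29 genes 17 had a positive difference (53.1% of all genes did), with a median of 0.15 against 0.03 over all genes. Both 211F libraries lay apart from both WT libraries in 6 of 29 genes, all with 211F higher. Over all genes 26.8% were apart, 15.2% with 211F higher and 11.6% with 211F lower, so the share of the list (20.7%) was near the background. In 4 of 29 genes (Cyp51, Msmo1, Ebp and Stard4) the difference exceeded both gaps between replicates, against 16.2% of all genes. Without WT 2, 12 of 29 differences were positive and the median was -0.22. With WT 1 left out in its place, 22 were positive and the median was 0.39.

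**Figure D2:**
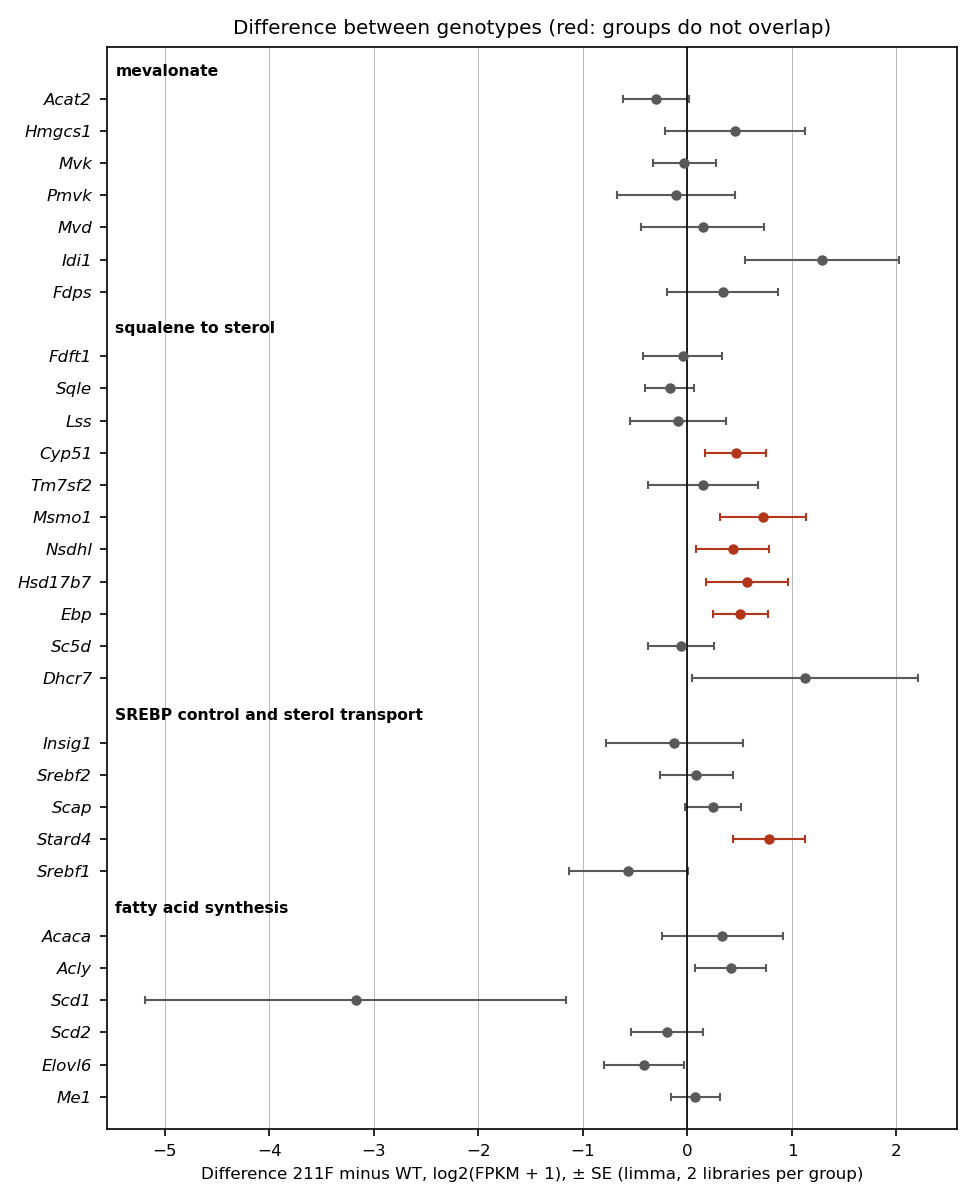
Difference of each gene between genotypes, 211F minus WT on the log2(FPKM + 1) scale, with bars of 1 standard error from limma (2 libraries per group). Red points mark the 6 genes whose groups do not overlap; the bars of Scd1 (-3.17) and Dhcr7 (1.13) are the widest.

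In the mevalonate pathway 4 of 7 genes had a positive difference, 0 of 7 had groups that did not overlap (26.8% of all genes), and the median was 0.15. Idi1, the isomerase that makes the active isoprenoid unit dimethylallyl diphosphate (chromosome 13, 8885501 to 8892451, plus strand, GRCm38), had FPKM values of 47.1 (WT 1), 12.8 (WT 2), 45.8 (211F 1) and 83.6 (211F 2). WT 2 was low and 211F 2 high, while WT 1 and 211F 1 were nearly level. Over the libraries of a genotype it averaged 29.9 ± 24.2 FPKM with WT and 64.7 ± 26.8 with 211F (SD, n = 2 each), and the difference was 1.29 ± 0.73 (SE; limma adjusted p = 0.9999). Idi1 was the mevalonate gene with the smallest unadjusted p (0.154 in limma). Without WT 2 its difference was 0.39.

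Hmgcs1, the cytosolic HMG-CoA synthase, was at 50.1, 14.2, 32.1 and 43.03 FPKM in WT 1, WT 2, 211F 1 and 211F 2. Fdps, which makes farnesyl diphosphate, was at 73.5, 27.4, 59.001 and 55.1 FPKM in the same order. Mvd, the decarboxylase that ends the mevalonate steps, was at 13.9, 4.75, 7.71 and 11.04 FPKM. In each of these genes WT 2 was the lowest library and WT 1 the highest, so that both 211F libraries lay between the WT libraries. Pmvk, the second kinase of the pathway, had the same order at the ends, with 23.3 FPKM in WT 1 and 9.19 in WT 2. Acat2, the cytosolic thiolase at the entry of the pathway, was at 18.4, 20.6, 12.8 and 19.03 FPKM, lowest in 211F 1, with a difference of -0.30 ± 0.31 (SE; limma adjusted p = 0.9999) that was -0.03 without 211F 1. Mvk, the first kinase, was also lowest in 211F 1 and spanned only 14.4 to 20.6 FPKM. Exons of Fdps overlap a predicted gene on its own strand, and those of Hmgcs1 and Idi1 overlap uncharacterised transcripts, so reads may be shared.

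**Figure D3:**
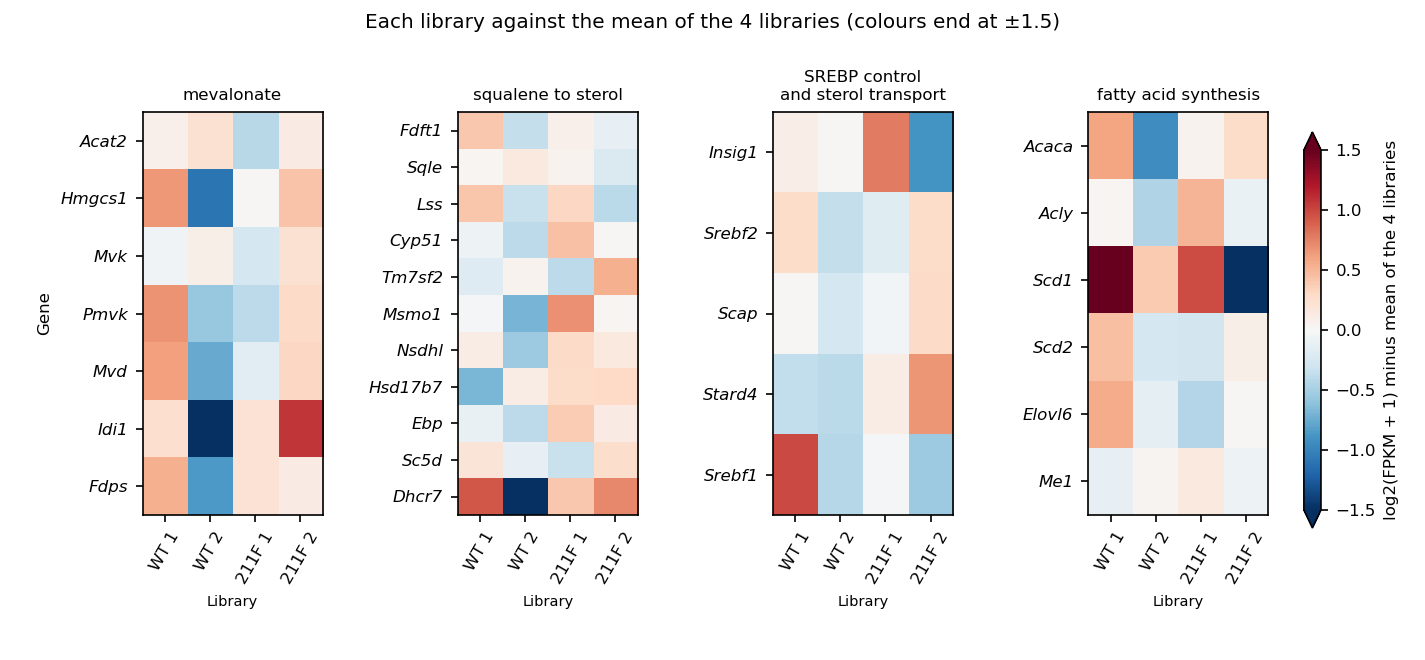
Deviation of each gene in each library from its mean over the 4 libraries, on the log2(FPKM + 1) scale, in 4 panels by role; red is above and blue below the mean, and colours end at 1.5 in either direction. The WT 2 column is blue for Hmgcs1, Pmvk, Mvd, Idi1, Fdps and Dhcr7, and the 211F 1 column is red for Msmo1, Cyp51, Insig1 and Acly.

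Among the 11 genes from squalene to cholesterol, 7 had a positive difference, with a median of 0.43. The groups did not overlap in 5 of 11, all with 211F higher (15.2% of all genes). These are Cyp51, Msmo1, Nsdhl, Hsd17b7 and Ebp, enzymes that act on the sterol after ring closure. Cyp51 demethylates lanosterol, Msmo1, Nsdhl and Hsd17b7 work together to strip a further pair of methyl groups, and Ebp then moves a double bond in the ring. Tm7sf2, Sc5d and Dhcr7, which also act after ring closure, had groups that overlapped. The enzymes that make and close squalene were outside this group as well. Fdft1, squalene synthase, was between 10.4 FPKM in WT 2 and 18.4 in WT 1, Sqle, squalene epoxidase, between 35.2 in 211F 2 and 45.7 in WT 2, and Lss, which closes the ring to lanosterol, between 7.23 in 211F 2 and 13.5 in WT 1. Their differences were -0.05, -0.17 and -0.09.

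Msmo1, the sterol methyl oxidase (chromosome 8, 64718139 to 64733792, minus strand), had FPKM values of 19.02 (WT 1), 11.5 (WT 2), 31.8 (211F 1) and 19.7 (211F 2). The groups were separated by the small step from WT 1 to 211F 2, and 211F 1 stood well above both. The difference was 0.72 ± 0.41 (SE; limma adjusted p = 0.9999). Cyp51 (chromosome 5, 4081145 to 4104746, minus strand) had the same order of libraries, with 24.8, 19.7, 35.9 and 26.5 FPKM and a difference of 0.46 ± 0.29. Exon sequence of Cyp51 overlaps Akap9 on the other strand.

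Ebp, on the X chromosome (8185329 to 8193512, minus strand), had FPKM values of 23.2 (WT 1), 18.9 (WT 2), 33.1 (211F 1) and 27.4 (211F 2), again in that order of libraries. It averaged 21.1 ± 2.99 FPKM with WT and 30.3 ± 4.05 with 211F (SD, n = 2 each), with a difference of 0.50 ± 0.26 (SE) and the smallest unadjusted p of the 11 genes (0.128 in limma). Nsdhl, a sterol dehydrogenase also on the X chromosome (72918557 to 72958514, plus strand), was at 15.2, 9.30, 17.2 and 15.6 FPKM in WT 1, WT 2, 211F 1 and 211F 2. WT 1 and 211F 2 were almost level there, and WT 2 alone was low. Hsd17b7, the ketoreductase of the demethylation complex (chromosome 1, 169949535 to 169969241, minus strand), had another order, with FPKM values of 6.06 (WT 1), 11.3 (WT 2), 12.7 (211F 1) and 12.9 (211F 2). Here WT 1 was the low library, the 211F libraries were alike, and the difference was 0.57 ± 0.39 (SE), but 0.17 without WT 1. The difference of Nsdhl, 0.43 ± 0.35, was 0.11 without WT 2. Those of Msmo1 and Cyp51 were 0.38 and 0.31 without WT 2, and 0.39 and 0.25 without 211F 1.

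For these 5 genes the RefSeq promoters on GRCm38.p6 are shown, as the genes of the squalene to cholesterol group chosen because their groups did not overlap (Tm7sf2, a reductase that acts among them, did overlap), with Hmgcs1 added as the only member whose window held the sterol regulatory element core searched. Each runs 5′ to 3′ on the strand of the gene, from 250 bases before to 50 after the annotated start. Capitals mark CCAAT on either strand (the box bound by NF-Y, a partner of SREBP; ATTGG when read from the other strand) and, in Hmgcs1, also TCACCCCAC. The windows are chr1:169969156-169969455 for Hsd17b7 (minus strand), chr5:4104648-4104947 for Cyp51 (minus), chr8:64733529-64733828 for Msmo1 (minus), chrX:8193463-8193762 for Ebp (minus), chrX:72918271-72918570 for Nsdhl (plus) and chr13:119690101-119690400 for Hmgcs1 (plus).
Cyp51: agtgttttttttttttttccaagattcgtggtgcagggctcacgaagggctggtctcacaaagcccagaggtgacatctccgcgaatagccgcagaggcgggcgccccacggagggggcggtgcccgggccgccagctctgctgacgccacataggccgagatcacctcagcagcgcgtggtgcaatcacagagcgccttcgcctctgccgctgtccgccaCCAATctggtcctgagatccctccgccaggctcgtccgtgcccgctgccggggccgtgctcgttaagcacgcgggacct
Msmo1: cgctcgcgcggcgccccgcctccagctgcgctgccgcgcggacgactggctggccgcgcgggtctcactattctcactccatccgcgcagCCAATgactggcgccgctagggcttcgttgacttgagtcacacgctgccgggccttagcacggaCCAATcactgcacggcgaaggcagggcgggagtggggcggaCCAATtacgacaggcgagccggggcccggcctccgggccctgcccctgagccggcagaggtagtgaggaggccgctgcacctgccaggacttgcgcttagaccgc
Nsdhl: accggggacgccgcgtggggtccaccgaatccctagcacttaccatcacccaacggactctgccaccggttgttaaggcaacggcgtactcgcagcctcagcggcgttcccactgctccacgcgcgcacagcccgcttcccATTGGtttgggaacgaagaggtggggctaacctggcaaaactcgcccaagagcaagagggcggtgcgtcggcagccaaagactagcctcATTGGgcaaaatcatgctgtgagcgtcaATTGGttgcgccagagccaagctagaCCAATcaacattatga
Hsd17b7: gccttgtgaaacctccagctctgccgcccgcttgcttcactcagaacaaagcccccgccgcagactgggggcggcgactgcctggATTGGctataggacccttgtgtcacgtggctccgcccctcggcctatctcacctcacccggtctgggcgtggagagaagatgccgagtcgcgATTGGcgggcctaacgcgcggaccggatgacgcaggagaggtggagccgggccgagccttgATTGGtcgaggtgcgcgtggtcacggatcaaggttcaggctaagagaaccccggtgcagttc
Ebp: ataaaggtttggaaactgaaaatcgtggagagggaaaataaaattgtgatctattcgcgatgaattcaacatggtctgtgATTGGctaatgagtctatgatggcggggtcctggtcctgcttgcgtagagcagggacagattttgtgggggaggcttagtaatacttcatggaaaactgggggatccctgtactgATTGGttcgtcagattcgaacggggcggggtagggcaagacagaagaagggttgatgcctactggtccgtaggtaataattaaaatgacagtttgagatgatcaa
Hmgcs1: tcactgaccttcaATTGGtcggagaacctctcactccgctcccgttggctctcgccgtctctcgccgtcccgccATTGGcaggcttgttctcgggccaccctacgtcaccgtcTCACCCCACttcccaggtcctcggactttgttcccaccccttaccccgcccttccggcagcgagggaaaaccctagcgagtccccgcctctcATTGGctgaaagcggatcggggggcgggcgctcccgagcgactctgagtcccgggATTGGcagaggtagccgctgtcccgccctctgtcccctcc

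All 5 windows of the demethylation and isomerase genes hold CCAAT, from 1 copy in Cyp51 to 4 in Nsdhl. RefSeq promoters were matched for 23 of the 29 genes (30 windows); Fdft1, Fdps, Scd1, Scd2, Sqle and Stard4 were not matched. CCAAT was found in 20 of the 30 windows (19 of the 23 genes), against 37.4% of all 32851 promoters of the same length. GGGCGG, the box of Sp1, was in 23 of 30 windows (20 of the 23 genes, among them the same 5), against 35.7%. CACGTG, an E-box that SREBP1 can also bind, was in 6 of 30 windows (Dhcr7, Hsd17b7, Insig1, Sc5d and both overlapping windows of Scap), against 7.15%. The sterol regulatory element core TCACNCCAC was in 1 of 30, against 1.24%, and its match in Hmgcs1 begins 137 bases before the start. All motifs were searched on both strands, none of these strings contains another, and a match is a description of letters only.

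Dhcr7, which reduces the last double bond on the way to cholesterol (chromosome 7, 143823145 to 143848410, plus strand), had FPKM values of 95.8 (WT 1), 11.1 (WT 2), 65.9 (211F 1) and 82.4 (211F 2). The WT libraries differed 8.63-fold, with both 211F libraries between them. The difference of 1.13 ± 1.08 (SE; limma adjusted p = 0.9999) therefore lay within the spread of WT, and it was -0.37 without WT 2. Sc5d, the sterol desaturase of the step before, spanned only 40.6 FPKM in 211F 1 to 61.8 in 211F 2. Tm7sf2, a sterol reductase, was the lowest of the 29 genes in 3 of 4 libraries, at 1.97, 2.52, 1.60 and 3.95 FPKM, and its exons overlap those of Vps51 on the same strand.

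Of the SREBP control and transport genes 3 of 5 had a positive difference, with a median of 0.09. Srebf2, the gene of SREBP2, was at 51.5, 32.7, 37.1 and 51.3 FPKM in WT 1, WT 2, 211F 1 and 211F 2, so that WT 1 and 211F 2 were level and WT 2 lowest. Scap, the escort protein, varied least of these, with FPKM values of 32.1 (WT 1), 26.2 (WT 2), 30.7 (211F 1) and 38.9 (211F 2). Insig1, the retention protein and itself a target of SREBP, was level between the WT libraries (10.3 and 9.65 FPKM) and apart between the 211F libraries (16.9 in 211F 1 and 4.61 in 211F 2). The difference of Insig1 was -0.13 ± 0.65 (SE; limma adjusted p = 0.9999), and it turned to 0.71 without 211F 2.

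Srebf1, the gene of SREBP1, had FPKM values of 127 (WT 1), 46.9 (WT 2), 62.2 (211F 1) and 43.1 (211F 2). WT 1 alone was high, and the other 3 libraries lay close together. The difference was -0.57 ± 0.57 (SE; limma adjusted p = 0.9999), and without WT 1 it was 0.14. Per length, Srebf1 stood at 2.47 times the level of Srebf2 in WT 1, 1.43 times in WT 2, 1.68 times in 211F 1 and 0.84 times in 211F 2, the only library with more Srebf2. Exons of Srebf1 overlap Rai1 on the other strand, and the use of strand in these values is not given.

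Stard4, a carrier that moves cholesterol between membranes, had the smallest unadjusted p of the 29 genes (0.0867 in limma). Its difference was 0.78 ± 0.35 (SE; limma adjusted p = 0.9999), between averages of 6.40 ± 0.114 FPKM with WT and 11.9 ± 3.44 with 211F (SD, n = 2 each). The WT libraries were almost equal, and both 211F libraries were higher. Its FPKM values were 6.48 (WT 1), 6.32 (WT 2), 9.51 (211F 1) and 14.4 (211F 2). Leaving out any 1 library gave differences from 0.51 (without 211F 2) to 1.06 (without 211F 1).

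In fatty acid synthesis the most uneven gene of all 29 was Scd1. It encodes a stearoyl-CoA desaturase, which puts the double bond into stearate to make oleate (chromosome 19, 44394455 to 44407879, minus strand). Scd1 had FPKM values of 142 (WT 1), 26.1 (WT 2), 39.8 (211F 1) and 0.161 (211F 2). The highest and lowest library differed 879-fold, and 211F 2 stood far below the other 3. The difference of -3.17 ± 2.01 (SE; limma adjusted p = 0.9999) rested on that library, and without it was -0.61. A level of 3 fragments over the longest Scd1 transcript corresponds to 0.0188 FPKM in 211F 2, so that the gene was above the limit that a count of 0 allows. The milk protein Csn1s1 was also highest in WT 1, and its part in the Scd1 level there was not tested.

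The paralog Scd2 (chromosome 19, 44293674 to 44306864, plus strand) did not share this pattern. It stood at 176, 107, 105 and 136 FPKM in WT 1, WT 2, 211F 1 and 211F 2, a 1.67-fold range, and was the most abundant of the 29 genes per length in 3 of the 4 libraries. Its difference was -0.20 ± 0.35 (SE; limma adjusted p = 0.9999). Of the summed Scd1 and Scd2 level, Scd1 made up 44.5% (WT 1), 19.6% (WT 2), 27.4% (211F 1) and 0.118% (211F 2). The other paralogs of the cluster, chosen after their values were seen, were low: Scd3 was at 1.27, 0.0192, 0.00759 and 0.573 FPKM and Scd4 at most at 0.0719. The paralogs are similar in sequence, and how reads that match more than 1 of them were counted is not given.

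Acly, the lyase that supplies cytosolic acetyl-CoA, was at 81.1, 57.8, 113 and 74.2 FPKM in WT 1, WT 2, 211F 1 and 211F 2, a difference of 0.41 ± 0.34 (SE; limma adjusted p = 0.9999). The 211F 1 library was the high one, and without it the difference was 0.11; 211F 2 lay between the WT libraries, and without WT 2 the difference was 0.17. Acaca, the acetyl-CoA carboxylase that commits carbon to fatty acids, was at 70.1, 23.8, 47.9 and 56.2 FPKM, again lowest in WT 2 and highest in WT 1. Elovl6, which lengthens palmitate, was at 23.5, 14.2, 11.3 and 15.9 FPKM, with a difference of -0.42 ± 0.38 that was -0.07 without WT 1 and -0.19 without 211F 1. Me1, the malic enzyme that supplies NADPH, varied least of the 29 genes, from 35.9 FPKM in WT 1 to 43.4 in 211F 1. Exons of Fdft1, Lss, Scap, Elovl6 and Me1 overlap genes on the other strand and those of Scd2 a microRNA gene, with the same limit as for Srebf1. Across the 6 fatty acid genes 3 differences were positive and 3 negative, with a median of -0.06.

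The other lipid synthesis and SREBP processing genes examined, 20 in number with 19 tested, had no call in limma. Of these, 8 were positive and 11 negative, with a median of -0.17. The 2 of smallest unadjusted p were Lpin1, a phosphatidate phosphatase, at 3.24 and 1.504 FPKM with WT and 1.08 and 0.914 with 211F (-0.71 ± 0.52, SE), and Tecr, a reductase of fatty acid elongation, at 273 and 158 against 152 and 156 FPKM (-0.43 ± 0.34). In Tecr WT 1 alone stood apart, and without it the differences of Tecr and Lpin1 were -0.04 and -0.33. Groups did not overlap in 6 of 19, near the 26.8% of all genes, 4 with 211F higher (Mbtps2, Fads2, Ggps1 and Lbr) and 2 lower (Lpin1 and Tecr). Mbtps2 is a protease that releases active SREBP, and its level was 15.8 and 16.5 FPKM with WT and 18.7 and 22.3 with 211F. Its exons overlap those of Yy2 on the same strand, so reads may be shared. Mbtps1, of the same list, had groups that overlapped. It was at 58.8 and 71.5 FPKM with WT and 64.1 and 58.7 with 211F, a difference of -0.08.

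Genes of sterol efflux, storage and the sterol sensor LXR had a negative difference in 8 of 10 tested (13 were listed), with a median of -0.27 and 0 of 10 called. Abca1, the pump that loads cholesterol onto apolipoprotein and an LXR target (chromosome 4, 53030787 to 53159895, minus strand), had FPKM values of 5.57 (WT 1), 7.87 (WT 2), 0.925 (211F 1) and 0.523 (211F 2). Both WT libraries stood well above both 211F libraries. The difference was -2.16 ± 0.44 (SE; limma unadjusted p = 0.00778, adjusted p = 0.9999), and leaving out any 1 library gave values from -2.37 to -1.94. Its size depended on the value added before the log: -3.07 with 0.1 and -1.03 with 5 in place of 1. Abcg1, a related pump and LXR target, had 2.34 and 1.70 FPKM with WT and 0.153 and 0.617 with 211F, a difference of -1.14 ± 0.52 (SE; limma adjusted p = 0.9999).

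Mylip, a ubiquitin ligase and also an LXR target, and Lipa, the lysosomal lipase that frees cholesterol from esters, were the other 2 of 10 genes with groups that did not overlap, both with 211F lower (11.6% of all genes were). Mylip had 14.6 and 12.8 FPKM with WT and 5.502 and 12.5 with 211F, so that WT 2 and 211F 2 were nearly level. Lipa had 13.8 and 27.9 FPKM with WT and 11.3 and 13.2 with 211F, with WT 1 close to 211F 2. Lpcat3, also in this list, had groups that overlapped, at 45.9 and 34.1 FPKM with WT and 27.1 and 43.8 with 211F. Whether the activity of LXR differed was not tested. The receptor genes themselves were not separated by genotype, with Nr1h2 (LXR beta) at 56.3 and 42.3 FPKM with WT and 37.6 and 52.8 with 211F, and Nr1h3 (LXR alpha) at 0.477 and 0.355 against 0.416 and 1.22, under the filter.

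**Figure D4:**
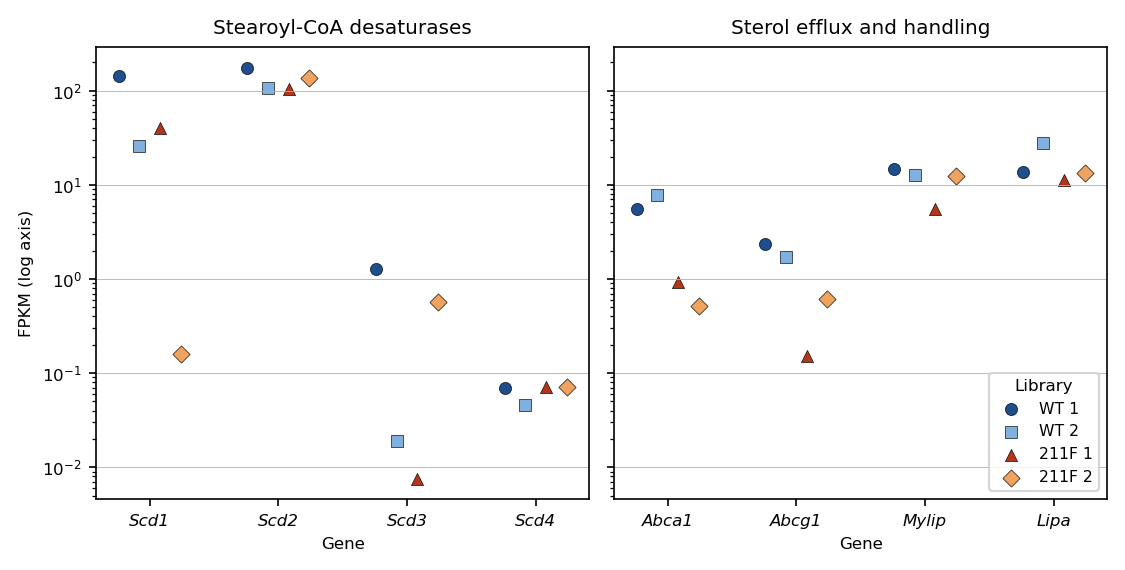
Levels in FPKM (log axis) of the stearoyl-CoA desaturase genes (left) and of 4 genes of sterol efflux and handling (right) in WT 1 (circles), WT 2 (squares), 211F 1 (triangles) and 211F 2 (diamonds). Scd1 in 211F 2 (0.161 FPKM) lies far below the other libraries while Scd2 stays between 105 and 176, and Abca1 is lower in both 211F libraries (0.925 and 0.523) than in both WT libraries (5.57 and 7.87).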

How the data were processed

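RNA-seq was measured in 4 libraries, 2 labelled WT and 2 labelled 211F. The authors deposited 1 table of FPKM values per Ensembl gene and library, and it holds no counts. GRCm38, DESeq2 and TopHat2 2.0.13 are named without a role by the submitters' processing notes; the program that made the FPKM, its annotation, any rescaling between libraries and how strand was used are not stated there. Libraries were strand-specific, per the labels' protocols. A value depends on the library total and on the gene length used. In 1974 long genes with a single annotated transcript, low values fell within 0.1 of whole steps for 91.9% to 94.02% of values. If the libraries were not rescaled, the steps put the depth at 1.72 (WT 2), 1.09 (211F 1) and 0.936 (211F 2) relative to WT 1, and 3 fragments in 1 kb at 0.0495 to 0.0911 FPKM, which covers counting error only. FPKM sums were 544399 to 564977.

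Symbols were matched by identifier for 50369 genes. Values were analysed as log2(FPKM + 1). Genes averaging at least 1 FPKM across libraries entered a test with limma 3.58.1 in R 4.3.3 (two-sided, with an intensity trend, Benjamini-Hochberg adjustment at 0.05), after a run on simulated data. With 2 libraries against 2, an exact permutation test of a single value cannot go below p = 0.333, so none was run. Positions and exon overlaps are from GENCODE M21, and promoter sequences from RefSeq on GRCm38.p6. Pcna itself averaged 151 ± 5.64 FPKM with WT and 146 ± 38.1 with 211F (SD, n = 2 each), and Epcam at 444, 0.893, 77.3 and 450 FPKM in WT 1, WT 2, 211F 1 and 211F 2; neither checks the allele. The 29 members and all lists were chosen with earlier results of these data known. By rule, values in every library were given for members with groups that did not overlap, for the 2 of smallest p in each role group and for Srebf1, Srebf2, Insig1, Scap, Scd1 and Scd2, and the 2 genes of smallest p were named from each other list; further genes were named after their values were seen. Proliferation markers (8 genes) summed to 1246, 1622, 1243 and 1158 FPKM in WT 1, WT 2, 211F 1 and 211F 2. Alternatives covered the pseudocount, the filter, scaling, the prior variance, each library left out and a block on the replicate number.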

Additional observations from a re-analysis of the deposited data

How the results depend on the processing

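limma called 0 genes under each of the 13 alternatives (smallest adjusted p 0.53, without WT 1). Unadjusted p under 0.05 was found for 241 genes, but for 745 with no filter, where 25743 genes were tested, and for 226 to 843 when a library was left out. Over the 29 members, other pseudocounts, filters, scalings and priors gave 17 positive differences, 6 genes whose groups do not overlap, and medians from 0.08 to 0.17. The exception was the filter at 5 FPKM, with 16 positive of 28 tested, since Tm7sf2 did not pass it. Leaving out each library gave 12 to 22 positive differences and a median from -0.22 (without WT 2) to 0.39 (without WT 1). Groups did not overlap in 15 to 20 members then, since a group of 1 library overlaps less easily (57.9% to 70.8% of all genes). Medians ranged from -0.36 to 0.83 for the mevalonate genes, 0.11 to 0.50 for squalene to sterol, -0.17 to 0.39 for SREBP control and -0.49 to 0.08 for fatty acid synthesis. Of the named genes, these turned sign when a library was left out: Acaca (-0.43 to 1.09), Dhcr7 (-0.37 to 2.63), Epcam (-1.24 to 6.63), Fdft1 (-0.43 to 0.33), Fdps (-0.36 to 1.03), Hmgcs1 (-0.42 to 1.33), Insig1 (-0.97 to 0.71), Lss (-0.46 to 0.28), Me1 (-0.035 to 0.19), Mvd (-0.54 to 0.83), Mvk (-0.28 to 0.21), Pcna (-0.34 to 0.20), Pmvk (-0.73 to 0.52), Sc5d (-0.36 to 0.24), Scd2 (-0.55 to 0.16), Srebf1 (-1.28 to 0.14), Srebf2 (-0.23 to 0.40), Tm7sf2 (-0.31 to 0.61). These kept their sign but moved by more than 1.5 times: Acadm (-1.24 to -0.57), Acat2 (-0.57 to -0.03), Acly (0.11 to 0.71), Cyp51 (0.25 to 0.67), Elovl6 (-0.76 to -0.071), Hsd17b7 (0.17 to 0.97), Idi1 (0.39 to 2.19), Lpin1 (-1.09 to -0.33), Msmo1 (0.38 to 1.06), Nsdhl (0.11 to 0.76), Scap (0.077 to 0.41), Scd1 (-5.74 to -0.61), Sqle (-0.31 to -0.036), Stard4 (0.51 to 1.06), Tecr (-0.82 to -0.04). Without WT 1, Abcg1 fell under the filter and has no value. In those fits the lone library of a group is assumed to vary like the other group. With the other alternatives 0 of 329 single-gene differences turned sign. Sizes did move with the pseudocount where a library was low. With pseudocounts of 0.1 and 5, Abca1 was at -3.07 and -1.03, Abcg1 at -2.30 and -0.38, and Scd1 at -4.24 and -2.15. Nothing in the labels ties libraries of the same number to each other, and across genes their deviations from the group means correlated at r = -0.465. With the replicate block 142 genes had an unadjusted p under 0.05, among them 1 member, and 0 were called; the members' median stayed at 0.15. A crossed pairing, chosen after seeing the data, gave 520 such genes, among them 1 member, and also 0 calls. Depth limits values near 0.0911 FPKM in 1 kb and below.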

Other observations

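Genes of fatty acid oxidation, the opposing pathway, were lowest in 1 library. Of 11 tested (12 listed), 10 had their lowest value in 211F 1, against 23.1% of all genes, and 0 were called by limma (0 with an unadjusted p under 0.05). Cpt1a, which admits fatty acids to mitochondria, was at 49.6, 52.9, 15.2 and 54.001 FPKM in WT 1, WT 2, 211F 1 and 211F 2, with 211F 1 alone low. The 2 of smallest p were Acadm and Decr1, enzymes of the oxidation spiral. Acadm had 39.8 and 64.01 FPKM with WT and 24.04 and 29.2 with 211F (-0.91 ± 0.33, SE; limma adjusted p = 0.9999). Decr1 was at 9.56 and 12.1 against 6.25 and 7.39 FPKM (-0.59 ± 0.32). Both had groups that did not overlap, with 211F lower (11.6% of all genes). Ppara, a regulator of this pathway, was at most at 0.235 FPKM. These 11 genes had a median difference of -0.14.

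Acsl3, which activates fatty acids, was at 139 FPKM in WT 1 and at 23.3, 36.0 and 52.1 in WT 2, 211F 1 and 211F 2, the same high library as Srebf1 and Scd1. Fads1, a desaturase of polyunsaturated fatty acids, was at 12.7 and 6.14 FPKM in WT 1 and 211F 2 and at 45.3 and 31.0 in WT 2 and 211F 1. Its neighbour in function Fads2 was at 56.6, 63.1, 87.2 and 63.4 FPKM in WT 1, WT 2, 211F 1 and 211F 2. These 3 genes were chosen after their values were seen. They were among the genes tested in limma, each with an adjusted p of 0.9999.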
